A study of Mus musculus with 6 samples.

Results

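The miR-101 family was followed in small RNA counts from the nucleus accumbens (NAc) of mice after morphine conditioned place preference (CPP), a test of drug-associated memory. Its members were the rows of the count table named miR-101a, miR-101b or miR-101c, with or without an arm suffix. This rule found 4 of the 1364 miRNAs listed: miR-101a-3p, miR-101a-5p, miR-101b-3p and miR-101c. miR-101b-5p was not analysed here. The mice were adult male C57BL/6N animals, aged 7 to 8 weeks, and both groups went through the CPP procedure. The morphine group was conditioned for 6 days with 10 mg/kg morphine given intraperitoneally in alternation with saline, and the saline group was conditioned with saline. NAc tissue, with core and shell together, was taken after the CPP test on day 7. There were 3 libraries per group, and each was counted as a replicate. The labels give 6 mice per group, while the legend of the study describes 1 mouse per library. The p-values therefore measure the spread between these libraries only.

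miRNAs are cut from a hairpin precursor, and 1 arm, the guide strand, is usually kept by Argonaute while the other, the passenger strand, is degraded. A guide strand finds its target mRNAs mainly through its seed, bases 2 to 8 from the 5′ end, so a shift of the 5′ end by a single base changes the seed. miR-101 is well known for repressing Ezh2, the catalytic subunit of Polycomb repressive complex 2. In neurons it is known as a brake on excitability during development, with the chloride importer NKCC1 among its targets.

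The mature sequences of all 4 members are shown because the 3 members of the 3p arm are nearly the same letters set in different registers. They come from RefSeq (GRCm38.p6), and the capitals mark the seed.
miR-101a-3p: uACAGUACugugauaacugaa
miR-101b-3p: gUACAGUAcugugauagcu
miR-101c: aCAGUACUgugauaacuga
miR-101a-5p: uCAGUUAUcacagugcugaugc

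miR-101c is identical over all its 19 bases to positions 2 to 20 of miR-101a-3p, counted from 1 at the 5′ end. The annotated miR-101b-3p starts 1 base earlier than miR-101a-3p. Over the 18 bases that the pair share, 17 are identical, and the difference is A16G, with the miR-101a-3p base first and its position counted in miR-101a-3p. As annotated, each of the 3 registers has a seed of its own, and 0 other mature miRNAs in the RefSeq table carry any of these seeds. A read that lacks the first and the last base of miR-101a-3p has the letters of miR-101c. The sources used here do not say how the counting assigned such reads or how many bases of offset it allowed. The counts of miR-101c are therefore uncertain. The number of mismatches that the counting allowed is not given either. How far the counts of miR-101a-3p and miR-101b-3p are separate was not tested.

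The hairpins are shown because they place both arms, in capitals, on their precursors.
Mir101a: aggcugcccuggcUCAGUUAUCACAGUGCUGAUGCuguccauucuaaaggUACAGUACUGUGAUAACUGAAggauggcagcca
Mir101b: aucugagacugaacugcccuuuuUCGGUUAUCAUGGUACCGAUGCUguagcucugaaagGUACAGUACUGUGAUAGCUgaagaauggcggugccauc

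Mir101a lies on the minus strand of chromosome 4 (GRCm38), from 101346945 to 101347027, inside an exon of the lincRNA E130102H24Rik of the GENCODE vM21 annotation. Mir101b is found on chromosome 19, plus strand, from 29135279 to 29135375, in an intron of Rcl1, a gene for ribosomal RNA processing transcribed from the same strand. Mir101c lies on the minus strand of chromosome 9, from 3038669 to 3038743, and overlaps no other annotated gene. No other miRNA gene lies within 10 kb of any of the 3 hairpins. Read in the register of miR-101a-3p, the Mir101b hairpin matches it at 20 of 21 bases, again with A16G as the difference.

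The libraries held 4183333 to 9842050 counts, so 3 counts, taken as the smallest level that could be shown, corresponded to 0.315 to 0.549 CPM (counts per M counts after TMM scaling). Saline replicate 2 stood apart from the other saline libraries. Of the 374 miRNAs with at least 100 counts per library on average, it was the highest of the 6 libraries for 114 and the lowest for 79. Of the 5 neuronal marker miRNAs fixed for a check of the tissue, all 5 were detected in every library. The main values of the members are given below with and without saline replicate 2 where they rest on it. Those of the other miRNAs named are given with all 6 libraries only. Intervals and floors speak only of counting error, because no molecular identifiers were used to separate PCR copies from molecules.

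miR-101a-3p, the guide strand of Mir101a and the most abundant member, had 3040, 114144 and 5296 counts in saline replicates 1, 2 and 3. In morphine replicates 1, 2 and 3 it had 22105, 12721 and 15778 counts. After scaling, its level was 556, 17119 and 555 CPM in the saline libraries and 2445, 1864 and 2478 CPM in the morphine libraries. Saline replicates 1 and 3 were thus the lowest and close to each other, saline replicate 2 was the highest, and all 3 morphine libraries lay between them. The group means were 6077 ± 9563 CPM (SD, n = 3) for saline and 2262 ± 345 CPM (SD, n = 3) for morphine. The groups overlapped, and the log2 fold change of -1.43 (SE 0.81) did not pass the test (edgeR quasi-likelihood F test, Benjamini-Hochberg adjusted p = 0.386 over all miRNAs). This depended on the scaling: with library totals it was -1.32 (SE 0.49, unadjusted p = 0.00807, adjusted p = 0.0647 with edgeR), and with upper quartile scaling -1.47 (SE 0.50, unadjusted p = 0.00377, adjusted p = 0.0369). In bulk tissue, fewer cells of a type and less RNA per cell cannot be told apart.

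miR-101b-3p, the guide strand of Mir101b, is made from another chromosome and followed the same order. Its counts were 1708, 51432 and 3777 in saline replicates 1, 2 and 3, and 14663, 8336 and 9566 in morphine replicates 1, 2 and 3. These correspond to 313, 7714 and 396 CPM in the saline libraries and to 1622, 1221 and 1502 CPM in the morphine libraries. The morphine libraries again lay between saline replicates 1 and 3 below and saline replicate 2 above. The means were 2807 ± 4249 CPM (SD, n = 3) and 1448.5 ± 206 CPM (SD, n = 3). The log2 fold change was -0.95 (SE 0.76, adjusted p = 0.524 in the same edgeR test). With upper quartile scaling it was -1.01 (SE 0.50, unadjusted p = 0.0459, adjusted p = 0.215), which met the criteria of the study.

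**Figure D1:**
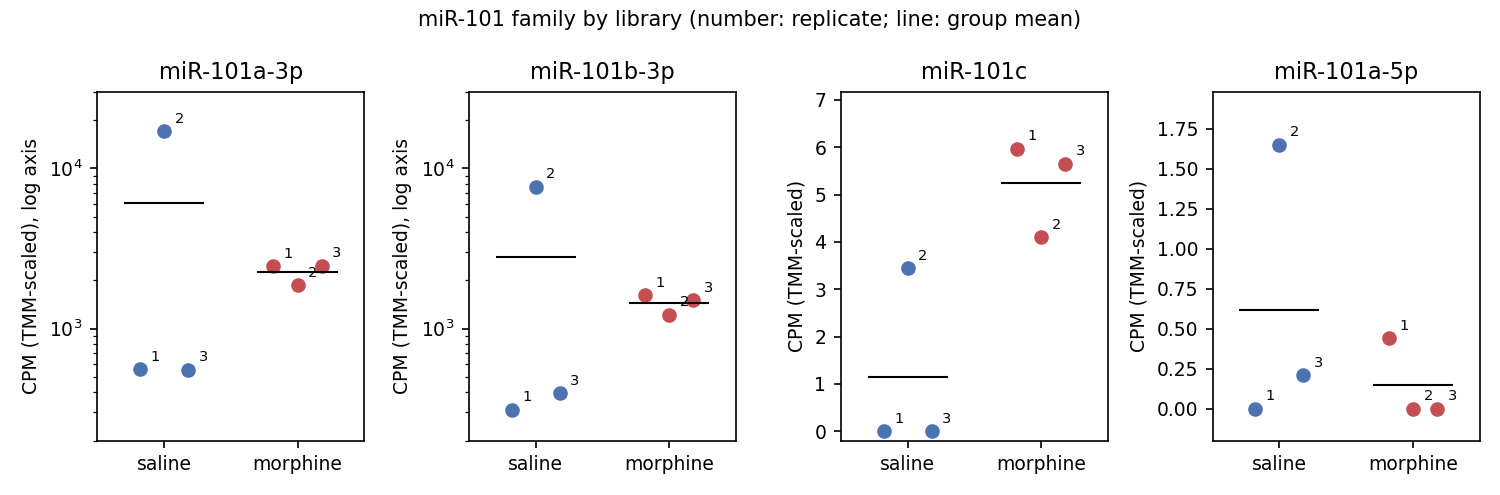
Level of each miR-101 family member in CPM after TMM scaling, on a log axis for the guide strands and a linear axis for miR-101c and miR-101a-5p. Each point is 1 library, numbered by replicate, and the line is the group mean. For both guide strands saline replicate 2 is the highest and the morphine libraries lie between it and the other saline libraries, while all 3 morphine libraries exceed the saline libraries for miR-101c.

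The spread within the saline group came from a single library. After TMM scaling, saline replicate 2 had 30.8 times the mean of saline replicates 1 and 3 for miR-101a-3p and 21.8 times for miR-101b-3p. Over the 374 miRNAs with at least 100 counts per library on average, the median of this ratio was 1.25, and the guide strands of the family ranked 4 and 7. By abundance, miR-101a-3p had rank 15 among all miRNAs of saline replicate 2 and rank 44 to 54 in the morphine libraries. It took 0.0727% and 0.0734% of the counts of saline replicates 1 and 3 against 1.37% in saline replicate 2. For miR-101b-3p these shares were 0.0408% and 0.0524% against 0.617%. The excess of saline replicate 2 was thus smaller in shares of counts than after TMM scaling. The highest morphine library exceeded the lowest by 1.33-fold for each guide strand. The family as a whole took 0.113%, 1.99% and 0.126% of the counts of saline replicates 1, 2 and 3, and 0.374%, 0.289% and 0.336% of those of morphine replicates 1, 2 and 3.

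Without saline replicate 2, the direction of both guide strands turned. The morphine mean was then 4.07 times the saline mean for miR-101a-3p and 4.09 times for miR-101b-3p. These ratios depend on TMM factors of 1.306 and 1.322 for saline replicates 1 and 3 and 0.8421 to 0.9361 for morphine. In shares of all counts, miR-101a-3p took 0.0727% and 0.0734% in these saline libraries against 0.225%, 0.174% and 0.209% in the morphine libraries. For miR-101b-3p the shares were 0.0408% and 0.0524% against 0.149%, 0.114% and 0.126%. Both ratios were thus smaller in shares of counts. With TMM scaling, the log2 fold changes were 2.02 (SE 0.24, adjusted p = 1.89e-13 in the same edgeR test) and 2.03 (SE 0.24, adjusted p = 4.25e-13). Both were higher in 3 of 3 morphine libraries than in either of the 2 remaining saline libraries, which follows from the order given above. How many of all miRNAs did so in that comparison was not counted. In that comparison 20.9% of the 1328 miRNAs tested were called higher by the criteria of the study for DEmiRNAs (unadjusted p up to 0.05, with |log2FC| from 0.58 upwards) and 17.2% at an adjusted p under 0.05. The saline side of it rests on 2 libraries.

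Without saline replicate 1 or 3 the guide strands moved the other way. Without saline replicate 1 edgeR gave miR-101a-3p a log2 fold change of -1.86 (SE 0.55) at an adjusted p of 0.0165, and miR-101b-3p one of -1.38 (SE 0.55) at 0.112. Without saline replicate 3 the values were -1.86 (SE 0.55) at an adjusted p of 0.0194 and -1.37 (SE 0.56) at 0.14. Both guide strands met the criteria of the study in each of these comparisons, in which 8.78% of 1344 and 8.31% of 1311 miRNAs were called lower. Among the 6 comparisons with a single library left out, the sign turned only without saline replicate 2.

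**Figure D2:**
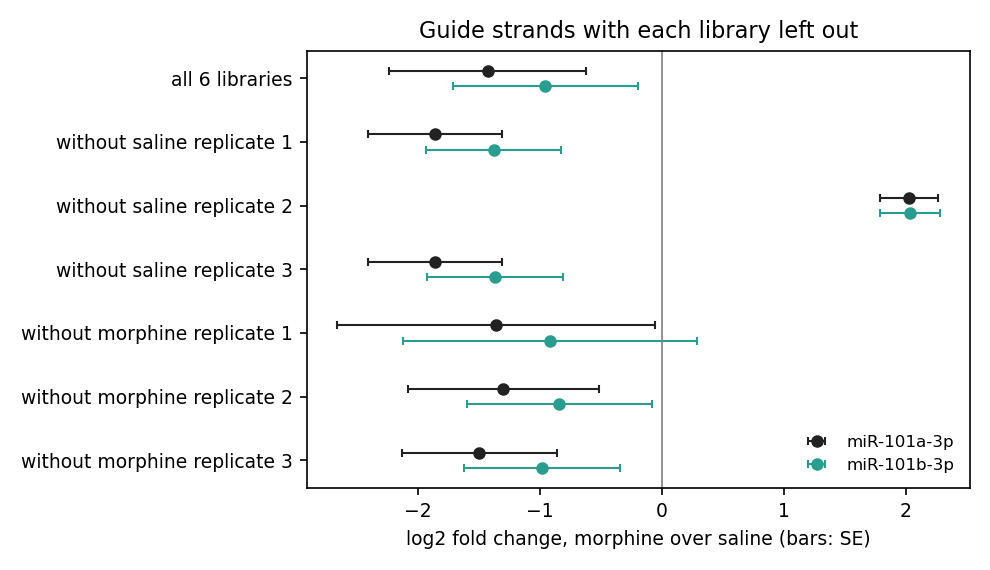
Log2 fold change of miR-101a-3p and miR-101b-3p between morphine and saline with all 6 libraries and with each library left out, with bars for the standard error of edgeR's fit. All estimates lie below 0 except those without saline replicate 2, which are 2.02 and 2.03.

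The balance between the guide strands changed far less than their level. miR-101b-3p made up 36.0%, 31.1% and 41.6% of the counts of both guide strands in saline replicates 1, 2 and 3. It made up 39.9%, 39.6% and 37.7% in morphine replicates 1, 2 and 3. The exact 95% binomial intervals were 34.6 to 37.4, 30.8 to 31.3 and 40.6 to 42.7 for the saline libraries, so the saline libraries differed from each other beyond counting error. Saline replicate 2 had the lowest share and saline replicate 3 the highest, and the morphine libraries lay between them. The means were 36.2% ± 5.29 (SD, n = 3) for saline and 39.1% ± 1.16 (SD, n = 3) for morphine. The difference of 2.85 percentage points was within the spread between replicates (exact two-sided permutation test, p = 0.5, Benjamini-Hochberg p = 0.7 over 3 such tests). With saline replicate 2 left out it was only 0.27 percentage points. The smallest p that 3 against 3 libraries allow is 0.1.

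miR-101a-5p, the passenger strand of Mir101a, was close to the detection floor. It had 0, 11 and 2 counts in saline replicates 1, 2 and 3 and 4, 0 and 0 counts in morphine replicates 1, 2 and 3, or 17 counts in all against 173084 of miR-101a-3p. The most counts were found in saline replicate 2, where miR-101a-3p was also the highest, and the groups overlapped. The edgeR estimate of -1.81 on the log2 scale (SE 1.55, adjusted p = 0.522) rests on these few counts, and a difference was not detectable at this depth. The 3p arm held all counts of the hairpin in saline replicate 1 and morphine replicates 2 and 3, and 99.99%, 99.96% and 99.98% in saline replicate 2, saline replicate 3 and morphine replicate 1. In saline replicate 1 no passenger count was found, which, taking 3 counts as the limit, allows a passenger share of up to 0.0987%, and in morphine replicates 2 and 3 it allows up to 0.0236% and 0.0190%. The 3p share differed by 0.00977 percentage points between the groups (exact two-sided permutation test, p = 0.7, Benjamini-Hochberg p = 0.7), but with shares this close to their upper limit and a smallest possible p of 0.1 the test says nothing about arm use.

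miR-101c was the only 1 of the 4 members to meet the criteria of the study with all 6 libraries. It had 0, 23 and 0 counts in saline replicates 1, 2 and 3 and 54, 28 and 36 counts in morphine replicates 1, 2 and 3. On the scaled level these are 0, 3.45 and 0 CPM in the saline libraries and 5.97, 4.10 and 5.65 CPM in the morphine libraries. Every morphine library was above every saline library, and saline replicate 2 was again the highest of its group. The means were 1.15 ± 1.99 CPM (SD, n = 3) and 5.24 ± 1.001 CPM (SD, n = 3). In the edgeR test the difference was 2.19 on the log2 scale (SE 0.99, unadjusted p = 0.0401, adjusted p = 0.235), so the call was lost on adjustment.

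The single call among 4 members stands beside 19.4% of all 1364 miRNAs called in either direction and 9.68% called higher in morphine by the same criteria. None of the 4 members had an adjusted p under 0.05 with edgeR, against 5.21% of all miRNAs, and 1 of the 4 had an unadjusted p under 0.05. Values that did not overlap and were higher in morphine were found for 1 member and for 12.2% of all miRNAs. DESeq2 called 0 members, against 17.2% of all miRNAs, and gave no p for the 2 guide strands.

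The call of miR-101c was lost in 5 of 16 other settings. It was lost with DESeq2, with the edgeR exact test, with either filter on low counts and without morphine replicate 1. Its direction was the same in all 16. Against the saline libraries without a count, the lowest morphine library was at least 7.47-fold higher than the floor of saline replicate 1 and at least 13.04-fold higher than that of saline replicate 3. Saline replicate 2 held all saline counts of miR-101c, so leaving it out set the saline side to 0 counts in both remaining libraries. The log2 fold change was then 8.29, without a standard error, at an adjusted p of 4.46e-12 with edgeR. That p follows from the choice of the library left out. In that comparison 17.2% of 1328 miRNAs were called higher at an adjusted p under 0.05.

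Although its letters are contained in miR-101a-3p, miR-101c did not keep a fixed ratio to it. There were 0.0201 counts of miR-101c for every 100 of miR-101a-3p in saline replicate 2 (exact 95% interval 0.0128 to 0.0302). In the morphine libraries there were 0.244, 0.220 and 0.228, with intervals from 0.146 to 0.319 in all. Saline replicates 1 and 3 had no count, and the upper ends of the same exact interval were 0.121 and 0.0696 per 100 (3 counts would be 0.0987 and 0.0567). At the mean morphine ratio, saline replicates 1, 2 and 3 would have held 7.02, 263.5 and 12.2 counts of miR-101c, against the 0, 23 and 0 found. The ratio was nearly the same in all morphine libraries and lower in every saline library. The means were 0.00672 ± 0.0116 (SD, n = 3) and 0.231 ± 0.0123 (SD, n = 3), and the difference of 0.224 reached the smallest p that the design allows (exact two-sided permutation test, p = 0.1, Benjamini-Hochberg p = 0.3). With saline replicate 2 left out the difference was 0.231, and neither remaining saline library had a count of miR-101c. The ratio needs no scaling between libraries, but miR-101a-3p is its denominator. In saline replicate 2, miR-101a-3p was at 7.57 times the morphine mean and miR-101c at 0.658 times. The low ratio of that library therefore came mostly from its high miR-101a-3p.

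**Figure D3:**
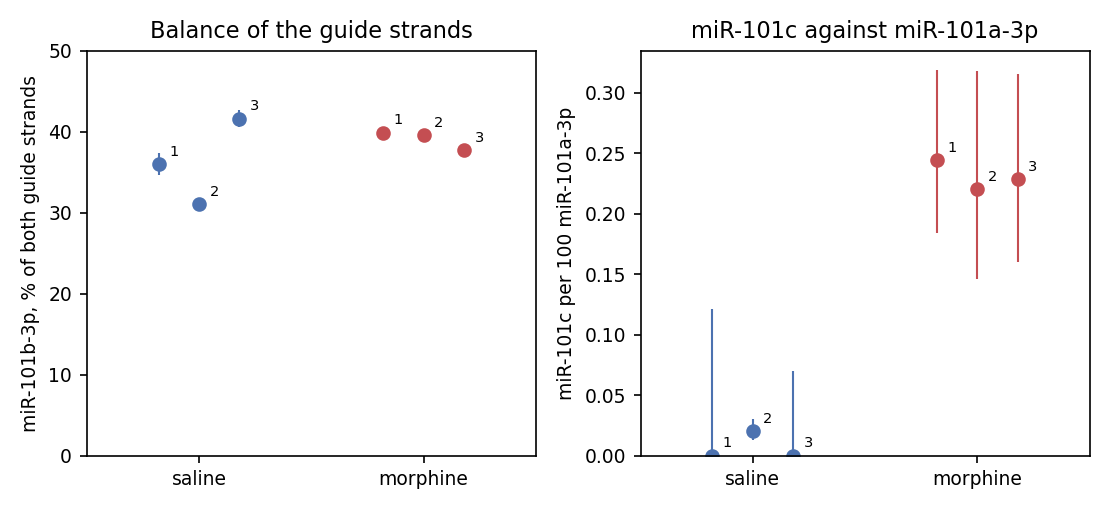
Left, miR-101b-3p as a percentage of the counts of both guide strands. Right, counts of miR-101c per 100 counts of miR-101a-3p. Each point is 1 library, numbered by replicate, with its exact 95% binomial interval. The guide strand balance overlaps between the groups, from 31.1% to 41.6%, whereas the 3 morphine libraries, at 0.220 to 0.244, exceed all saline libraries in the right panel.

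Marker miRNAs of other cell types and of neurons were read beside the family. The summed level of the 5 neuronal markers was 142600, 272600 and 127700 CPM in saline replicates 1, 2 and 3 and 177300 to 205600 CPM in the morphine libraries. The order of this sum was that of the guide strands, but only 2 of the 5 markers had it themselves, mmu-miR-9-5p and mmu-miR-137-3p. The level of mmu-miR-9-5p was 69354, 211199 and 60965 CPM in the saline libraries and 95872 to 112157 CPM in the morphine libraries. mmu-miR-128-3p had its lowest level, 55107 CPM, in saline replicate 2 and its highest, 104566 CPM, in morphine replicate 3. mmu-miR-138-5p was also highest in saline replicate 2, at 1238.5 CPM. Its levels in morphine replicates 2 and 3, 478 and 479 CPM, were below the 491 CPM of saline replicate 3. The call among the 5 was mmu-miR-124-3p, which was lower in every morphine library (-1.88 on the log2 scale, SE 0.45, edgeR adjusted p = 0.0195).

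The other marker lists also held members that differed in direction. Among them, mmu-miR-126a-5p, mmu-miR-142a-5p, mmu-miR-338-3p and mmu-miR-34c-5p had the order of the guide strands, so it was not particular to neuronal markers. For mmu-miR-338-3p the saline libraries had 64.2, 361 and 84.1 CPM and the morphine libraries 104 to 197 CPM. For mmu-miR-34c-5p these were 58.4, 859 and 189 CPM and 241 to 353 CPM. Others, such as mmu-miR-204-5p and mmu-miR-219a-5p, did not have this order. In every library the counts of mmu-miR-338-3p equalled those of another listed miRNA. Those of mmu-miR-126a-5p and mmu-miR-219a-5p each nearly equalled those of another listed miRNA, so these marker values are uncertain. The pair of endothelial markers summed to 1485 to 5002 CPM in the saline libraries and 10980 to 16260 CPM in the morphine libraries, of which mmu-miR-126a-3p made up nearly all. mmu-miR-126a-3p was called higher (2.42 on the log2 scale, SE 0.50, edgeR adjusted p = 0.00818). Its partner mmu-miR-126a-5p had the opposite sign, at -0.96 (SE 0.71), was not called, and was highest in saline replicate 2 at 317 CPM. The 4 microglial and leukocyte markers summed to 238 to 758 CPM in saline and 125 to 154 CPM in morphine. Their single call was mmu-miR-150-5p, at -2.03 (SE 0.51, edgeR adjusted p = 0.0301), while mmu-miR-142a-3p, mmu-miR-142a-5p and mmu-miR-223-3p overlapped between the groups, with the last at 0.41.

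The 4 erythroid markers summed to 216 to 312 CPM in saline and 360 to 572 CPM in morphine. Only mmu-miR-451a met the criteria of the study, at 1.57 on the log2 scale (SE 0.51, edgeR adjusted p = 0.0698), and mmu-miR-144-3p, mmu-miR-144-5p and mmu-miR-486a-5p had negative estimates of -1.31, -1.16 and -0.20 and were not called. The 5 markers of choroid plexus and ependyma summed to 1962 to 2791 CPM and 963.5 to 1048 CPM. Their 2 calls by the criteria of the study went opposite ways, with mmu-miR-204-5p at -1.50 (SE 0.46, edgeR adjusted p = 0.0533) and mmu-miR-34b-3p at 1.21 (SE 0.56, edgeR adjusted p = 0.245). The 3 oligodendrocyte markers summed to 1820 to 1903 CPM and 1572 to 1963 CPM, and 1 of them, mmu-miR-219a-5p, was called lower, with 63.9 CPM in saline replicate 2 and 0.471 to 3.98 CPM in the other libraries. The part of these values in the miR-101 results was not tested.

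The 6 bases at positions 2 to 7 of miR-101a-3p, ACAGUA, were looked for within bases 1 to 8 of the other miRNAs. A mature RefSeq sequence was matched by name for 1089 of the 1364 miRNAs, and 2 outside the family held these letters. They are shown with the shared letters in capitals.
miR-144-3p: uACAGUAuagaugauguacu
miR-199a-3p: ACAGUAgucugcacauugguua

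miR-144-3p, an erythroid miRNA, carries the letters at the same positions as miR-101a-3p and differs from it at the last base of the seed. It had 1, 17 and 1 counts in saline replicates 1, 2 and 3 and 8, 0 and 1 in morphine replicates 1, 2 and 3. Its groups overlapped, with a difference of -1.31 on the log2 scale (SE 1.28, edgeR adjusted p = 0.584), and saline replicate 2 was the highest here too. miR-199a-3p, which is abundant in fibroblasts and mural cells, carries the letters 1 base closer to its 5′ end. Its level was 15.6, 21.5 and 9.23 CPM in saline replicates 1, 2 and 3 and 91.2, 37.4 and 39.6 CPM in morphine replicates 1, 2 and 3. It was higher in all 3 morphine libraries, and met the criteria of the study with a difference of 1.86 on the log2 scale (SE 0.55, edgeR adjusted p = 0.0507), although not the adjusted threshold.

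The levels of miR-101a-3p across the libraries were compared with those of the 371 other miRBase miRNAs that had at least 100 counts per library on average. Likeness was the root mean square distance between log2(CPM + 1) values, each centred on its own mean over the 6 libraries. miR-101b-3p was at a distance of 0.216, and the median of the 371 was 1.68. The nearest was miR-340-5p, at 0.174, with 196, 5784 and 168 CPM in saline replicates 1, 2 and 3 and 1094, 668 and 966 CPM in morphine replicates 1, 2 and 3. miR-136-3p and miR-3071-5p, which come from opposite strands of a single imprinted locus on chromosome 12, followed at 0.284 and 0.288. Their counts were nearly equal in every library, for example 44433 and 43643 in saline replicate 2, so both values are uncertain. miR-335-5p, from the imprinted Mest locus, was at 0.341, with 15.4, 684 and 10.4 CPM in the saline libraries and 84.4, 69.3 and 97.5 CPM in the morphine libraries. miR-9-3p, an abundant miRNA of neural cells, was at 0.470, with 237, 3514 and 247 CPM in the saline libraries and 1271, 1001 and 1175 CPM in the morphine libraries.

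All 5 had saline replicates 1 and 3 lowest, saline replicate 2 highest and the morphine libraries between, which follows from how they were chosen. None of the 5 was called, with log2 fold changes of -1.17, -1.19, -1.19, -1.50 and -0.21 and standard errors of 0.70 to 0.89. Of the 374 miRNAs with at least 100 counts per library on average, 60, or 16.0%, showed this order, and 38, or 10.2%, the opposite one. These counts were made after the values of the family had been seen.

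**Figure D4:**
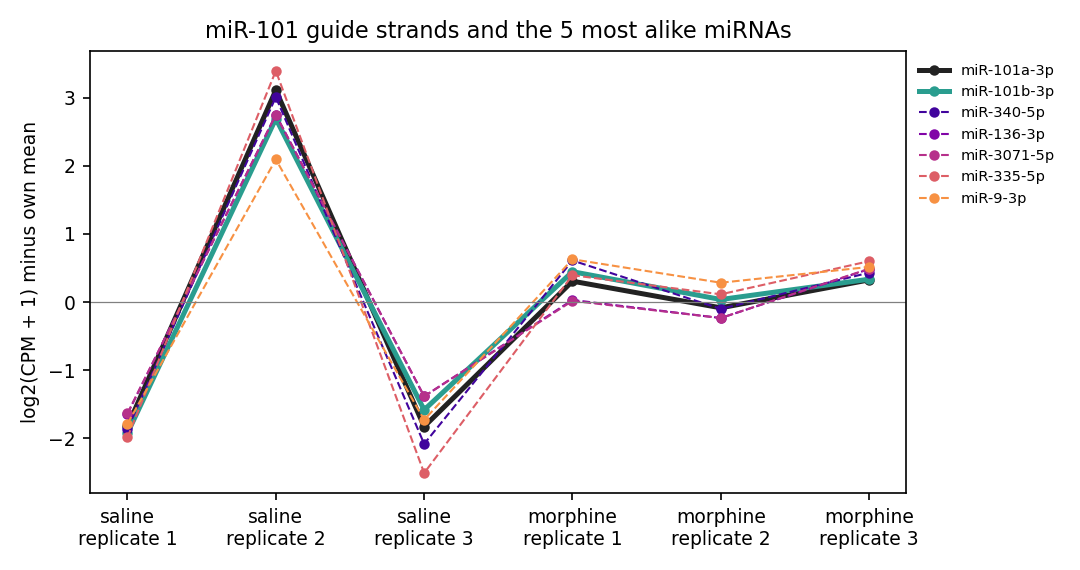
Log2(CPM + 1) of miR-101a-3p, miR-101b-3p and the 5 most alike miRNAs in each library, minus the mean of each miRNA over the 6 libraries. Lines join the values of a miRNA and imply no order of the libraries, and those of miR-136-3p and miR-3071-5p overlap. All 7 peak in saline replicate 2 and are lowest in saline replicates 1 and 3.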

How the data were processed

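NAc small RNA libraries of 3 saline and 3 morphine samples were analysed. The authors removed reads with adapters, poly-N or low quality and those outside 15 to 35 nt, used Bowtie to take out matches to other non-coding RNA and to repeats, and matched the remainder to miRBase. They deposited raw read counts per miRNA and TPM values, each the deposited count scaled to the total of its library; the TPM values were not used. Build and miRBase release are not given in the sources used here. All 1364 miRNAs with at least 1 count were tested with the quasi-likelihood test of edgeR 4.0.16 (R 4.3.3, TMM, Benjamini-Hochberg adjustment). Standard errors came from its fit. Shares were tested with exact permutation tests (SciPy 1.17.1). The 3p share of Mir101b was not tested, since miR-101b-5p was not analysed here. Members, lists and tests were chosen with earlier results of these data known. Named miRNAs are the members, those sharing bases 2 to 7 of the most abundant member, the 5 nearest in pattern, and cell type markers. Alternatives were other scalings, filters and tools (DESeq2 1.42.0), a replicate block and leaving out each library. The fit was tested on simulated data in which no single library was made to stand apart. That test therefore does not cover a library such as saline replicate 2. Positions and sequences are from GENCODE vM21 and RefSeq (GRCm38), not from the authors. All read count columns were used.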

Additional observations from a re-analysis of the deposited data

How the results depend on the processing

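Of the 4 members, 1 met the criteria of the study with all libraries and TMM. The count was 2 with library totals (miR-101c higher, miR-101a-3p lower), beside 21.8% of all miRNAs. With upper quartile scaling it was 3 (miR-101c higher, both guide strands lower), again beside 21.8%. It was 0 with DESeq2, the edgeR exact test, filterByExpr and a minimum of 10 counts in total. DESeq2 gave no p for the 2 guide strands, so they could not be called there. Of all miRNAs tested, these settings called 17.2%, 17.7%, 31.3% and 25.6%. With a library left out the count was 0 to 3, beside 13.3% to 37%. At an adjusted p under 0.05 the count was 0, beside 71 of all 1364 miRNAs. With upper quartile scaling it was 1 (miR-101a-3p, lower), beside 153 of 1364. With a library left out it was 0 to 3, beside 0 to 386 of all miRNAs tested. Leaving out a library gave log2 fold changes from -1.86 to 2.02 for miR-101a-3p, -1.38 to 2.03 for miR-101b-3p and -5.10 to 0.38 for miR-101a-5p, positive in each case only without saline replicate 2. The 3p share of Mir101a then differed by -0.0012 to 0.0177 percentage points. The median log2 fold change of all miRNAs was -0.15 with TMM, -0.40 with library totals and -0.35 with upper quartile scaling. With the replicate block the guide strands were at 0.78 and 0.85, neither called, and 1 member was called, as without it. Same-numbered libraries correlated at -0.23, -0.29 and 0.14 in their deviations from the group means. These values gave no sign that the numbers pair the libraries. They are too few to exclude a pairing, and differently numbered libraries were not compared. The cause of these changes was not tested. filterByExpr removed miR-101a-5p. Depth limits miR-101a-5p and miR-101c.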
